A study of Mus musculus with 7 samples.

Results

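Collagen chains were compared between cancer-associated fibroblasts (CAFs) of Brca2-silenced and control pancreatic tumors. The members are the 33 genes of the count table whose symbol is Col, a number, the letter a and a number, out of 12771 genes listed. KPC cells, a mouse pancreatic cancer line, expressed a hairpin that silences Brca2 (shBrca2) or one without a target (shControl), both from the pLKO.1 lentiviral vector with puromycin selection, and were injected into the pancreas of male C57BL/6 mice (substrain J in the methods of the study) at 8 weeks of age. Tumors were taken 2 to 3 weeks later, and the live cells sorted were podoplanin-positive and lacked EpCAM, CD31 and CD45. Poly(A) RNA of 3 shControl mice (replicates 1, 2 and 4) and 4 shBrca2 mice (replicates 1 to 4) was counted at the 3' end by MARS-seq. In both groups the hairpin sat in the cancer cells of a single line, and the fibroblasts were those of an unmodified host.

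Collagens are trimers whose chains wind around each other through glycine repeats. Fibrillar chains build the cables of the interstitial matrix, FACIT chains (fibril-associated collagens with interrupted triple helices) decorate their surface, type VI forms beaded filaments between cells and fibrils, and type IV forms the sheet of the basement membrane. In pancreatic cancer, fibroblasts are a main source of the dense interstitial collagen. The members fell into 10 fibrillar, 4 basement membrane, 2 multiplexin, 5 FACIT, 6 beaded filament, 2 short-chain network, 1 anchoring fibril, 1 transmembrane and 2 other chains.

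Total counts ran from 1898679 to 5990579 per library, and values are given as normalized counts, that is counts divided by the size factor of their library. All 9 fibroblast markers examined (Pdpn, Pdgfra, Pdgfrb, Dcn, Lum, Thy1, Fap, Fbln1 and Vim) had counts in every library, with summed levels of 35742 to 50355 in shControl and 31138 to 36964 in shBrca2. Epcam, Ptprc and Cdh5, which define epithelial, immune and endothelial cells, were not analysed here. Collagen chains took 4.06 ± 0.651% of all counts in shControl CAFs and 3.70 ± 0.222% in shBrca2 CAFs (SD, n = 3 and 4). Col1a1, Col1a2 and Col3a1 made up 73.3 ± 1.03% and 72.9 ± 2.00% of those collagen counts. This share was taken on counts of 3' ends that were not divided by transcript length.

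In shBrca2 CAFs 3 collagen chains were higher, Col24a1, Col4a5 and Col4a6, and 5 were lower, Col14a1, Col4a2, Col6a6, Col8a2 and Col28a1. A gene was called when its DESeq2 adjusted p over all genes was under 0.1, its log2 fold change exceeded 0.5 in size and its mean normalized count exceeded 5. The 8 called chains are 24.2% of the 33, where 9.04% of the 12768 genes tested were called. By direction, 3.77% of all genes tested were called higher and 5.27% lower. For 10 chains (30.3%) every shBrca2 library lay on one side of the controls, against 17.1% of all genes tested. Of the 31 chains with a mean over 5, 14 had a positive and 17 a negative log2 fold change, with a median of -0.06, and the median of all genes with such a mean was 0.00. The called chains thus moved in both directions while the median of the collagens lay near that of all genes.

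**Figure D1:**
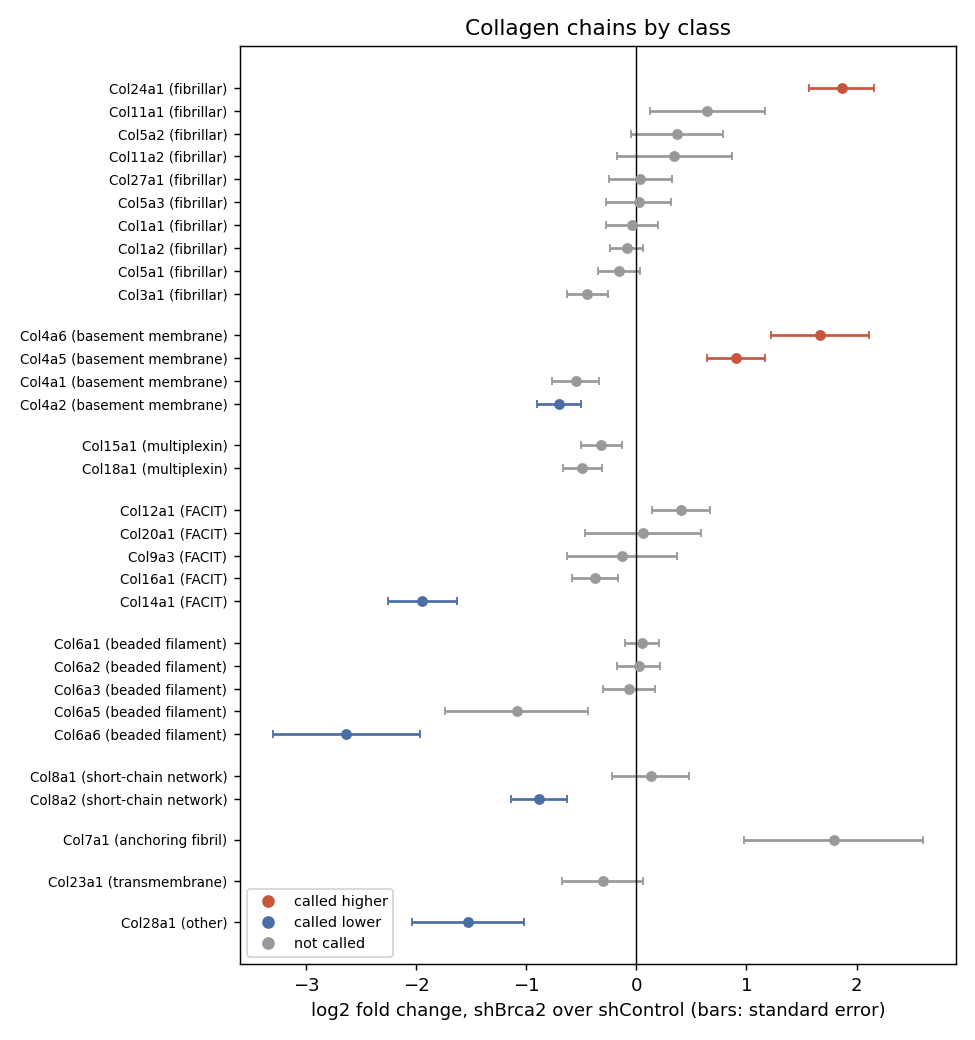
Log2 fold change (shBrca2 over shControl, x axis) with its standard error for the 31 collagen chains with a mean normalized count over 5, grouped by class on the y axis. The called chains lie on both sides of 0, from Col24a1 at 1.86 to Col6a6 at -2.63, and the type I chains lie within 1 standard error of 0.

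Fibrillar chains were examined first. Col24a1, a minor fibrillar chain known from bone, was the single called member of this class (mm10 chromosome 3, 145292472 to 145552013). Controls 1, 2 and 4 held 22.2, 35.4 and 33.1 normalized counts, and shBrca2 libraries 1 to 4 held 102, 78.7, 136 and 123. Every shBrca2 library lay above every control. The mean rose 3.64-fold, from 30.2 ± 7.05 to 110 ± 25.2 (SD, n = 3 and 4), its log2 fold change being 1.86 ± 0.30 (SE, DESeq2 adjusted p = 2.0e-07). It was called in all 13 alternative fits, with log2 fold changes from 1.67 to 2.00. The counts are from bulk RNA, in which a change in the number of cells of a type and a change in RNA per cell cannot be told apart.

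The chains of type I collagen, the main component of interstitial fibrils, were not called. Col1a1 (chromosome 11, 94936224 to 94953042) had normalized counts of 11144, 16333 and 8269 in the controls and 12647, 11420, 9174 and 13248 in the shBrca2 libraries, so that all shBrca2 values fell inside the control range. Col1a2 (chromosome 6, 4505618 to 4541543) had 35074, 46334 and 34959 against 35550, 37997, 37706 and 34662. The group ranges of Col1a2 also overlapped. Their log2 fold changes were -0.04 and -0.09, with standard errors of 0.24 and 0.15 (DESeq2 adjusted p = 0.95 and 0.86).

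Col3a1, which forms the homotrimer of type III collagen, was not called. It had normalized counts of 50482, 63792 and 50672 in the controls and 36924, 51637, 34894 and 38146 in shBrca2 replicates 1 to 4. Of the shBrca2 libraries, replicate 2 lay inside the control range and the other 3 lay below it. The log2 fold change was -0.44 ± 0.18 (SE, DESeq2 adjusted p = 0.14), and without shBrca2 replicate 2 it was -0.59 and called (DESeq2 adjusted p = 0.012). Type V chains, which start fibrils and limit their width, were not called. Col5a1 had 4806, 6701 and 4064 against 4383, 4874, 4439 and 4898, its log2 fold change being -0.16 ± 0.19 (SE, DESeq2 adjusted p = 0.76). Col5a2 varied more, at 209, 129 and 45.7 against 178, 209, 86.4 and 186, its log2 fold change being 0.37 ± 0.42 (SE, DESeq2 adjusted p = 0.74). The ranges of both chains overlapped. The remaining fibrillar chains Col5a3, Col11a1, Col11a2 and Col27a1 had log2 fold changes between 0.02 and 0.64 with standard errors from 0.28 to 0.52, and none was called.

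Among the FACIT chains 1 of 5 was called, and it had the smallest adjusted p of the collagens. Col14a1 (chromosome 15, 55307644 to 55520803), which binds the surface of fibrils and regulates their assembly, had normalized counts of 1936, 1259 and 1366 in the controls and 275, 652, 401 and 253 in the shBrca2 libraries. The highest shBrca2 library, replicate 2, stayed below the lowest control. The mean was 3.85-fold lower, at 1520 ± 364 against 395 ± 183 (SD, n = 3 and 4), its log2 fold change being -1.94 ± 0.31 (SE, DESeq2 adjusted p = 1.7e-07). The call held in all 13 alternative fits, with log2 fold changes from -2.31 to -1.73. The summed level of the fibroblast markers, given above, was below every control in 2 of the 4 shBrca2 libraries, and Dcn and Lum were called lower. Their part in this result was not tested.

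The other FACIT chains differed by less. Col16a1 had 1025, 1488 and 1220 normalized counts against 781, 904, 1244 and 917, its log2 fold change being -0.37 ± 0.21 (SE, DESeq2 adjusted p = 0.33). Its groups overlapped through shBrca2 replicate 3, without which it was called (log2 fold change -0.52, DESeq2 adjusted p = 0.082). Col12a1, found on fibrils under tension, ran from 159 to 244 in the controls and from 200 to 375 in the shBrca2 libraries (log2 fold change 0.40, DESeq2 adjusted p = 0.46). Col9a3 and Col20a1 had between 3 and 19 raw counts in a library, too few to show a moderate difference. The summed FACIT level went from 3004 ± 232 to 1664 ± 213 normalized counts (SD, n = 3 and 4). Without Col14a1 the sums were 1483 ± 248 and 1268 ± 154, and these overlapped.

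Of the 6 beaded filament chains 1 was called. Col6a1 and Col6a2, the common chains of type VI, were not. Col6a1 had normalized counts of 4408, 4721 and 3982 in the controls against 4117, 5008, 3974 and 5050 (log2 fold change 0.05, standard error 0.15, DESeq2 adjusted p = 0.92). Col6a2 had 6746, 8476 and 5946 against 6409, 8411, 5803 and 8026 (log2 fold change 0.02, standard error 0.19, DESeq2 adjusted p = 0.96). The partner chain Col6a3 had 1739, 2075 and 1339 against 1768, 1241, 1352 and 2204 (log2 fold change -0.06, standard error 0.24, DESeq2 adjusted p = 0.94).

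Col6a4, Col6a5 and Col6a6 encode further partners that can stand in for the third chain of type VI and lie beside each other on chromosome 9. Col6a6 (chromosome 9, 105689417 to 105828246) had normalized counts of 14.5, 20.2 and 15.6 in the controls and 2.58, 0.583, 5.18 and 4.07 in the shBrca2 libraries. All shBrca2 values lay below all controls. Its log2 fold change of -2.63 was the most negative of the 33 chains, at ± 0.67 (SE, DESeq2 adjusted p = 0.0022), but it rests on raw counts of 1 to 17 per library. It was called in all 12 alternative fits that gave it a value. In the annotation, 1 of its 2 distinct 3' ends lies in an exon of another gene, so its counts are uncertain if strand was not used. Col6a5 had normalized counts of 276, 83.5 and 414 in the controls and 109, 87.4, 216 and 75.2 in the shBrca2 libraries. The overlap came from shControl replicate 2, which lay below 3 of the 4 shBrca2 libraries. Its log2 fold change was -1.09 ± 0.65 (SE, DESeq2 adjusted p = 0.39). Without shControl replicate 2 it was -1.53 (DESeq2 adjusted p = 0.00043) and without shBrca2 replicate 3 it was -1.51 (DESeq2 adjusted p = 0.01), both called, while without shControl replicate 4 it was -0.57 (DESeq2 adjusted p = 0.88). Col6a4 had 1 to 10 raw counts per library and a log2 fold change of 0.34 ± 0.87 (SE), and it passed none of the 3 thresholds for a call (DESeq2 adjusted p = 0.91).

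**Figure D2:**
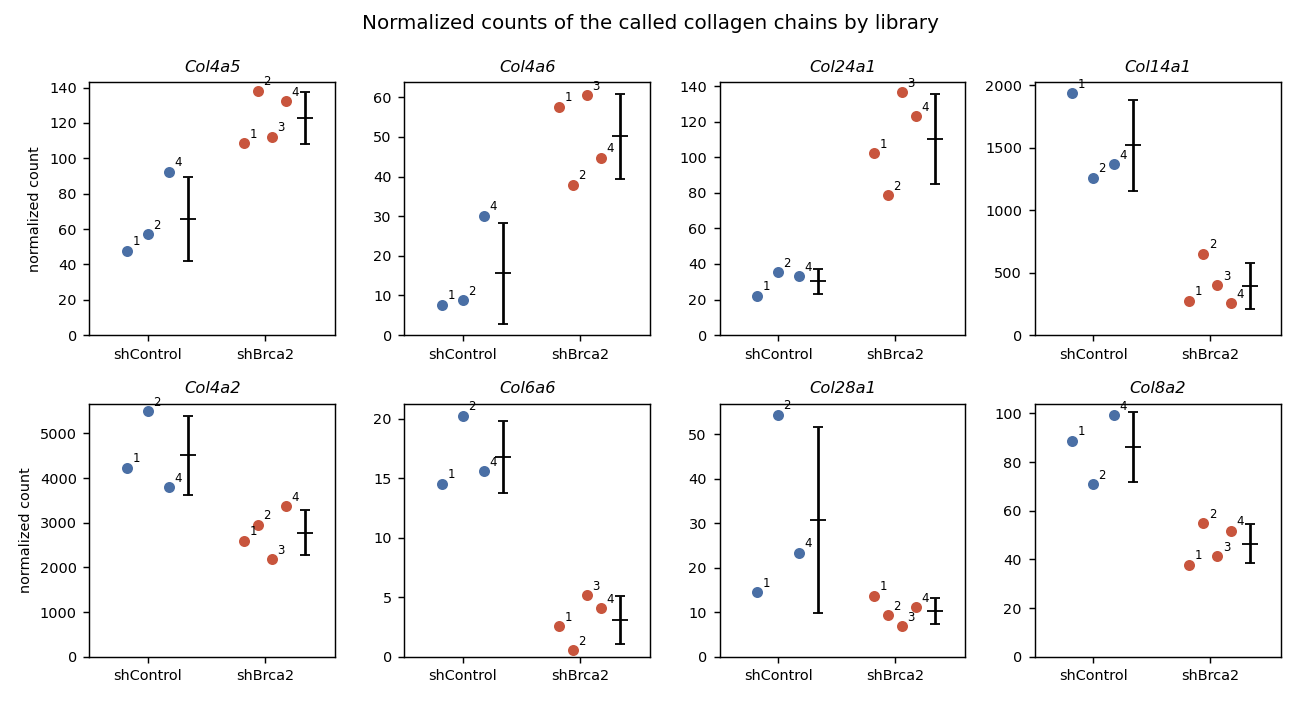
Normalized counts (y axis, from 0) of the 8 called collagen chains in each library, with replicate numbers beside the points and the group mean ± SD in black. In each panel all 4 shBrca2 libraries lie on one side of the 3 shControl libraries, above for Col4a5, Col4a6 and Col24a1 and below for Col14a1, Col4a2, Col6a6, Col28a1 and Col8a2.

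The basement membrane chains moved in opposite directions. Type IV collagen is made from pairs of genes that lie head to head. Col4a1 and Col4a2 form the trimer found in nearly all basement membranes, whereas Col4a5 and Col4a6 form one restricted to certain epithelia and smooth muscle. In RefSeq (GRCm38.p6) the starts of Col4a1 and Col4a2 lie 21 bases apart on chromosome 8, and those of Col4a6 and Col4a5 lie 1343 bases apart on chromosome X. The 250 bases upstream of each start are printed here since the chains of a pair were compared with each other, with matches on either strand to the CCAAT box, to the GC box GGGCGG and to the motif GAANNTTC in capitals. They span chr8:11312827-11313076 (minus strand), chr8:11312555-11312804 (plus), chrX:141475169-141475418 (plus) and chrX:141474077-141474326 (minus).
Col4a1: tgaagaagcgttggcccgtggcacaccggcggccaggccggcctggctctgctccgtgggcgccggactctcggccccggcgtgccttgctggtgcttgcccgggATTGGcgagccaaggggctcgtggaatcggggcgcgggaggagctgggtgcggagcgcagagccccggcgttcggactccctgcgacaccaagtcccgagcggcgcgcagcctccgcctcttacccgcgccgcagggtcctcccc
Col4a2: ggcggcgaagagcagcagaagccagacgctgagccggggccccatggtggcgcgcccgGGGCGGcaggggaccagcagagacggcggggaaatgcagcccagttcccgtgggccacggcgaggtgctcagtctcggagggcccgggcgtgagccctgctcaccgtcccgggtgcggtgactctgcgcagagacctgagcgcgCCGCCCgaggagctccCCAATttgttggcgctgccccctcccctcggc
Col4a5: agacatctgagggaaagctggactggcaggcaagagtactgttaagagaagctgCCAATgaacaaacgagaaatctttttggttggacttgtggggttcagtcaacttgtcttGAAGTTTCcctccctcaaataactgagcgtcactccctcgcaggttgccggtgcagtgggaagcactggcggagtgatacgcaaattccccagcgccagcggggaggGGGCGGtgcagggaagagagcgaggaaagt
Col4a6: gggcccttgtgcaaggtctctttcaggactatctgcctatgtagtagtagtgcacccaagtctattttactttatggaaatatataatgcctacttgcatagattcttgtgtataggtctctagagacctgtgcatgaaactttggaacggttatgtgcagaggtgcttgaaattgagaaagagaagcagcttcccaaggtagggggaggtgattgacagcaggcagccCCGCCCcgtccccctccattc

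A search of the windows from 250 bases before to 50 after the start used the CCAAT box, the GC box bound by Sp1 (GGGCGG), the TATAAA box, the AP-1 site (TGACTCA), the core of the hypoxia response element (ACGTG) and part of a heat shock element (GAANNTTC), each on both strands. Of the 33 chains, 27 had a window. GGGCGG occurred in 20 of the 27 (74.1%), where 35.7% of all 32851 windows of this length held it, and CCAAT in 10 of 27 (37.0%, against 37.4% of all windows). ACGTG was in 4 of 27 (14.8%, against 19.6%), TATAAA in 2, TGACTCA in 1 and GAANNTTC in 1, Col4a5. In all windows TATAAA stood in 13.6%, TGACTCA in 5.20% and GAANNTTC in 7.86%. Among the called chains with a window, GGGCGG was in 2 of 3 that were higher and in 3 of 4 that were lower. The 32851 windows include further starts of the same genes and genes outside the count table, whereas each chain was counted once. The windows of Col4a1 and Col4a2 share 78 bases, and the only GGGCGG of Col4a1 lies in them, so that site counts for both. These matches describe the letters and do not show binding.

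Col4a2 (chromosome 8, 11312805 to 11449287) had normalized counts of 4238, 5492 and 3794 in the controls and 2597, 2955, 2181 and 3369 in the shBrca2 libraries. The groups did not overlap. The mean was 1.62-fold lower, at 4508 ± 881 against 2776 ± 506 (SD, n = 3 and 4), its log2 fold change being -0.70 ± 0.20 (SE, DESeq2 adjusted p = 0.011). Col4a2 was called in 12 of 13 alternative fits. Col4a1 (chromosome 8, 11198423 to 11312889) had 4671, 6523 and 3939 against 3479, 3630, 2617 and 4027. Its shBrca2 replicate 4 lay above shControl replicate 4, and its log2 fold change of -0.55 ± 0.22 (SE) stayed just above the threshold (DESeq2 adjusted p = 0.104). Without shControl replicate 4 it was called, at -0.70 (DESeq2 adjusted p = 0.035). Without shControl replicate 2 the log2 fold change was -0.33 (DESeq2 adjusted p = 0.42). TMM size factors and a filter on low counts also brought it just under the threshold (DESeq2 adjusted p = 0.098 and 0.0996).

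Col4a6 (chromosome X, 141165403 to 141474095) had normalized counts of 7.69, 8.86 and 30.2 in the controls and 57.7, 37.9, 60.4 and 44.7 in the shBrca2 libraries. shControl replicate 4 stood above the other 2 controls but below all shBrca2 libraries. The mean rose 3.22-fold, from 15.6 ± 12.6 to 50.2 ± 10.7 (SD, n = 3 and 4), its log2 fold change being 1.67 ± 0.44 (SE, DESeq2 adjusted p = 0.0063). Without shControl replicate 4 the log2 fold change was 2.60 (DESeq2 adjusted p = 1.5e-05). Col4a5 (chromosome X, 141475370 to 141689236) had 47.8, 56.9 and 92.4 against 108, 138, 112 and 132. Again shControl replicate 4 was the highest control and the groups did not overlap. The log2 fold change of Col4a5 was 0.91 ± 0.26 (SE, DESeq2 adjusted p = 0.016), and it was not called without shControl replicate 1 (0.71, DESeq2 adjusted p = 0.20). Col4a5 was called in 11 of 13 alternative fits.

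Set against each other, Col4a5 and Col4a6 together had 0.623, 0.548 and 1.59 counts per 100 counts of Col4a1 and Col4a2 in the controls and 2.73, 2.67, 3.60 and 2.39 in the shBrca2 libraries. The mean of this share was 3.10-fold higher in shBrca2 CAFs (0.919 ± 0.578 and 2.85 ± 0.522, SD, n = 3 and 4). Without shControl replicate 4 it was 4.87-fold higher, and without any other single library 2.58-fold to 3.27-fold. The share and these alternatives were chosen after the values had been seen, and the difference was not tested. Because Col4a1 and Col4a2 carried nearly all type IV counts, the summed level of the class followed them, from 9633 ± 2191 to 6387 ± 1091 normalized counts.

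Of the markers of other cells that make basement membrane, 4 epithelial, 3 pericyte and 2 mesothelial genes were called higher, with Krt19 counted in both the epithelial and the mesothelial list and Calb2 as the other mesothelial one. Among all genes tested, 3.77% were called higher and 5.27% lower. Of the 10 epithelial markers examined 6 were in the table, and their summed level was 384, 757 and 1142 normalized counts among the controls and 1895, 1434, 1604 and 2017 in the shBrca2 libraries, with Cldn7 at 0 in some library. The 8 pericyte markers (of 9) summed to 876, 1793 and 971 against 2360, 2239, 1831 and 2141, with none at 0. Most of that sum was Des (mean 526 against 950) and Ndufa4l2 (287 against 732), which were called higher, as was Notch3 (51.5 against 112). Of the uncalled pericyte markers, Rgs5, Cspg4 and Mcam had higher means in shBrca2 CAFs. Kcnj8 (202 against 184) and Abcc9 (39.5 against 31.6) had lower ones. The 9 mesothelial markers (of 10) summed to 907, 1518 and 2922 against 2470, 2466, 2943 and 2410. Calb2 was at 0 in every control and at 26.7, 8.16, 38.0 and 8.13 in the shBrca2 libraries. shControl replicate 4 was thus the highest control for Col4a5, Col4a6, the epithelial sum and the mesothelial sum, which share Krt19. The pericyte sum was highest in shControl replicate 2 among the controls. Within the shBrca2 group, Col4a5 was highest in replicate 2 (138), where the epithelial sum was lowest. Col4a6 was 44.7 in shBrca2 replicate 4, where the epithelial sum was highest. Both Col4a6 (60.4) and the mesothelial sum were highest in shBrca2 replicate 3. Over 7 of 11 endothelial markers the sum was 1249 to 1805 in the controls and 658 to 816 in the shBrca2 libraries, with Pecam1 at 0 in some library. Most of it was Eng, the single endothelial marker called, which was lower (mean 1298 against 470). Of the uncalled endothelial markers, Kdr (65.8 against 93.3), Esam (52.3 against 92.5) and Egfl7 (14.5 against 23.8) had higher means in shBrca2 CAFs. Pecam1, Tek and Plvap had lower ones, with log2 fold changes of -3.60, -1.55 and -0.59. Pecam1 had a DESeq2 adjusted p of 0.031, but its mean normalized count of 3.87 was under the threshold of 5. The part of these cells in the type IV results was not tested.

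Multiplexins, which anchor basement membranes to the tissue beneath and release antiangiogenic fragments, were not called. Neither overlapped between groups, which held for 17.1% of all genes tested. Col18a1 had normalized counts of 730, 839 and 1021 in the controls and 546, 580, 686 and 653 in the shBrca2 libraries. Its DESeq2 adjusted p was 0.06, but its log2 fold change of -0.49 (standard error 0.17) fell short of 0.5. It was called without shControl replicate 1 (-0.60) and without shBrca2 replicate 3 (-0.54), while it was -0.35 without shControl replicate 4 (DESeq2 adjusted p = 0.45) and -0.43 without shBrca2 replicate 1 (DESeq2 adjusted p = 0.34). For Col18a1, 896 of 7063 exon bases and 1 of 4 distinct 3' ends are shared with another gene. Col15a1 had 2832, 4313 and 2751 against 2597, 2636, 2696 and 2663, its log2 fold change being -0.32 ± 0.19 (SE, DESeq2 adjusted p = 0.38). The 4 shBrca2 libraries of Col15a1 had an SD of 41.8 and lay just under the lowest control.

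**Figure D3:**
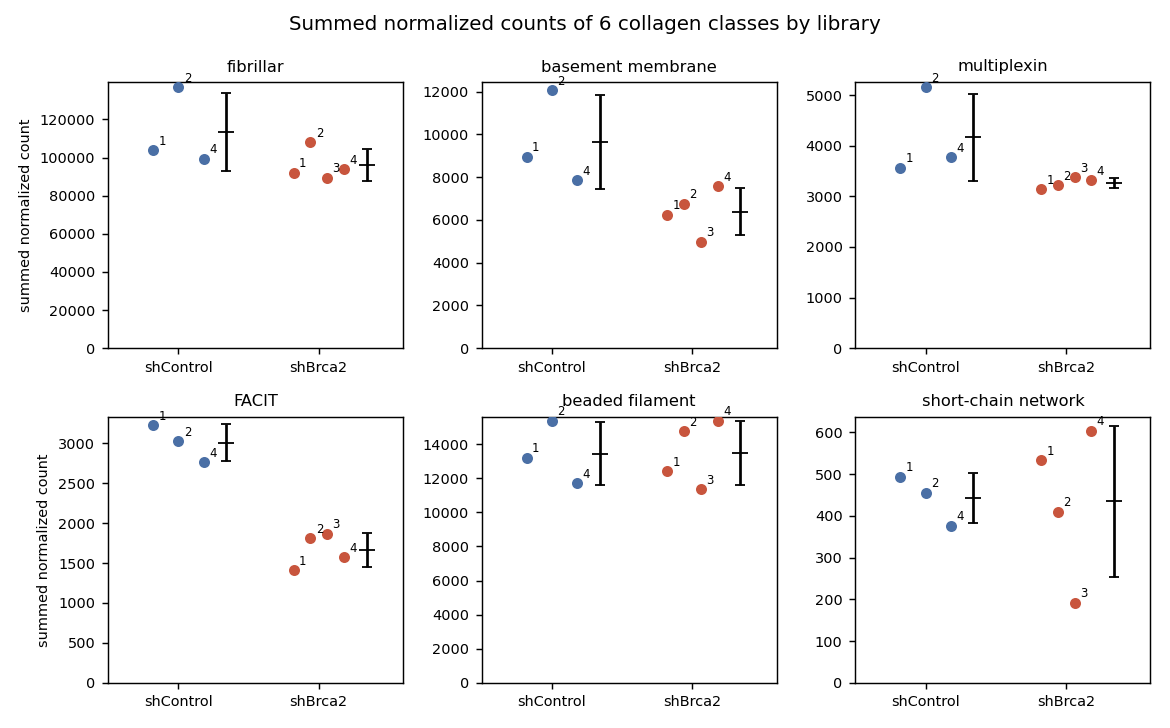
Summed normalized counts (y axis, from 0) of 6 collagen classes in each library, with replicate numbers beside the points and the group mean ± SD in black. The FACIT, multiplexin and basement membrane sums of all shBrca2 libraries lie below all controls, while the fibrillar, beaded filament and short-chain sums overlap.

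Short-chain network collagens form hexagonal lattices, as in the cornea and vessel wall. Col8a2 (chromosome 4, 126286794 to 126314330) had normalized counts of 88.8, 70.8 and 99.2 in the controls and 37.9, 54.8, 41.5 and 51.8 in the shBrca2 libraries, which did not overlap. It fell from 86.3 ± 14.4 to 46.5 ± 8.11 (SD, n = 3 and 4), its log2 fold change being -0.88 ± 0.26 (SE, DESeq2 adjusted p = 0.013). The call was lost without shControl replicate 1 (DESeq2 adjusted p = 0.12), shControl replicate 4 (0.17) or shBrca2 replicate 1 (0.15), with log2 fold changes of -0.87, -0.77 and -0.79. Its partner Col8a1 had 405, 385 and 277 against 496, 355, 150 and 552 and overlapped widely (log2 fold change 0.13, standard error 0.35, DESeq2 adjusted p = 0.91).

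Col7a1, the chain of the fibrils that anchor epithelia, had normalized counts of 53.8, 111 and 41.8 in the controls and 216, 61.2, 131 and 545 in the shBrca2 libraries. Its log2 fold change was 1.79, but the standard error was 0.81 and it was not called (DESeq2 adjusted p = 0.23). The spread lay within the shBrca2 group, where replicate 2 was below the highest control and replicate 4 was far above the rest. Without shBrca2 replicate 2 it was called (2.11, DESeq2 adjusted p = 0.064), and without shBrca2 replicate 4 the log2 fold change was 0.99 (DESeq2 adjusted p = 0.25). The epithelial sum was likewise highest in shBrca2 replicate 4 and lowest within its group in replicate 2, but among the controls shControl replicate 4 had the highest epithelial sum and the lowest Col7a1. The part of epithelial RNA in the level of Col7a1 was not tested.

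Col28a1 (chromosome 6, 7997100 to 8193709), a short chain with von Willebrand factor A domains known from peripheral nerve, had normalized counts of 14.5, 54.4 and 23.3 in the controls and 13.8, 9.33, 6.91 and 11.2 in the shBrca2 libraries. The gap between the groups was narrow, between 14.5 in shControl replicate 1 and 13.8 in shBrca2 replicate 1. It was called lower, its log2 fold change being -1.53 ± 0.51 (SE, DESeq2 adjusted p = 0.04), on raw counts of 4 to 43. The size rested on shControl replicate 2, without which the log2 fold change was -0.85 and not called (DESeq2 adjusted p = 0.45). It was also not called without shBrca2 replicate 2 (-1.47, DESeq2 adjusted p = 0.12) or shBrca2 replicate 4 (-1.56, DESeq2 adjusted p = 0.104). Of 8 Schwann cell markers 3 were in the table, with summed levels of 230 to 340 in the controls and 371 to 417 in the shBrca2 libraries and Sox10 at 0 in some library. That sum was mostly Ncam1 (mean 283 against 381), whereas the means of Sox10 (3.30 against 0.577) and S100b (15.4 against 7.80) were lower in shBrca2 CAFs, and none of the 3 was called. Their part in the Col28a1 result was not tested. The transmembrane chain Col23a1 had 56.4, 62.0 and 59.3 against 43.9, 25.6, 39.7 and 83.3 (log2 fold change -0.31, standard error 0.37, DESeq2 adjusted p = 0.76). Col26a1 had 0 to 2 raw counts in every library other than shBrca2 replicate 4, which had 10, and gave no usable comparison.

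Chains that assemble into one molecule or one fibril were then compared within each library, as the log2 ratio of their counts, in which normalization cancels. Only the change of a ratio between groups is read here, since its level depends on transcript ends. The ratio of Col4a1 to Col4a2 was 0.14, 0.25 and 0.05 in the controls and 0.42, 0.30, 0.26 and 0.26 in the shBrca2 libraries. It was higher in all 4 shBrca2 libraries than in all controls, the means differing by 0.16 (exact permutation, two-sided p = 0.057, which is as low as 3 against 4 libraries can reach, adjusted over the 6 ratios 0.34). For Col3a1 to Col1a1 it was 2.18, 1.97 and 2.62 in the controls against 1.55, 2.18, 1.93 and 1.53, the means differing by -0.46 (exact permutation, two-sided p = 0.11, adjusted p = 0.34). These groups overlapped through shBrca2 replicate 2. Between Col1a1 and Col1a2 the ratio differed by 0.08, with means of -1.75 ± 0.30 and -1.66 ± 0.29 (SD, n = 3 and 4, two-sided exact permutation test, p = 0.69). Col6a1 to Col6a2, Col6a3 to Col6a1 and Col5a1 to Col5a2 differed by 0.03, -0.13 and -0.67 (two-sided exact permutation tests, p = 0.74, 0.74 and 0.40), and their adjusted p was 0.74. No ratio could pass 0.05 in this design.

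**Figure D4:**
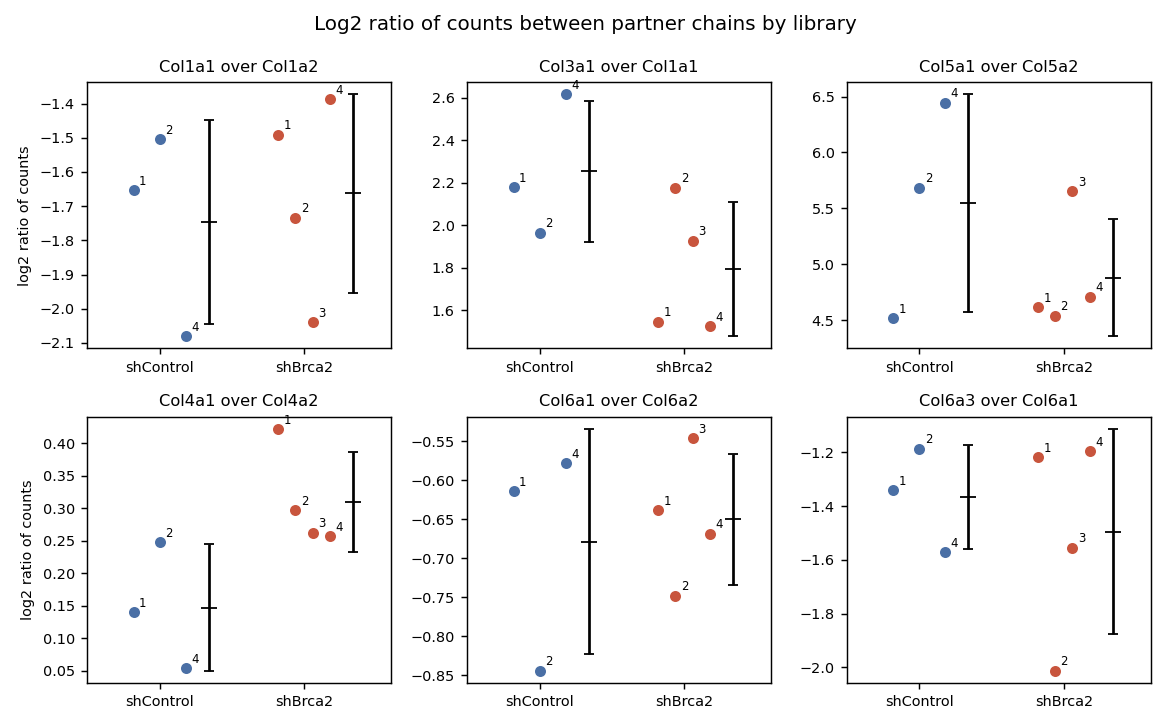
Log2 ratio of raw counts (y axis, pseudocount 1) between 6 pairs of collagen chains in each library, with replicate numbers beside the points and the group mean ± SD in black. Only the ratio of Col4a1 to Col4a2 has all shBrca2 libraries on one side of the controls.

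The most abundant chains shared a pattern among the controls. shControl replicate 2 was the highest of the 7 libraries for 10 of the 12 chains with a mean normalized count over 1000. Summed over all members, it had 173341 normalized counts, against 133367 and 126098 in shControl replicates 1 and 4 and 111424 to 135210 in the shBrca2 libraries. The fibrillar sum was 113447 ± 20533 in the controls and 95888 ± 8373 in the shBrca2 libraries (SD, n = 3 and 4), and these overlapped.

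The genes that process, bind and remove collagen were compared through 6 lists. Of their 85 tested genes, 2 were called higher and 24 lower. Among all 12768 genes tested, 3.77% were called higher and 5.27% lower. Modification and folding enzymes had 1 of 18 called lower and none higher, close to the share of all genes. The called gene was P3h3, of the prolyl 3-hydroxylase family, at -0.56 on the log2 scale (DESeq2 adjusted p = 0.0092). Among enzymes and helpers of propeptide removal and crosslinking, 4 of 11 were called lower and none higher, with a list median of -0.44. They included Pcolce2 (-1.53, DESeq2 adjusted p = 2.6e-07), which helps cleave the C-propeptide, Loxl4 (-1.31, 6.4e-05), a lysyl oxidase, and Adamts2 (-0.81, 0.0026), which removes the N-propeptide. Of 14 genes whose products bind fibrils, 8 were called lower, with a median of -0.75. Ogn (-2.09, DESeq2 adjusted p = 0.064), Comp (-1.99, 0.0001) and Tnxb (-1.85, 7.3e-09) had the most negative values. Comp and Tnxb encode linkers of collagen fibrils and Ogn a small leucine-rich proteoglycan.

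Collagen receptors changed both ways, with 1 of 12 called higher and 3 lower, beside 3.77% and 5.27% of all genes tested. Itga10, an integrin chain known from cartilage, rose by 1.82 on the log2 scale (DESeq2 adjusted p = 9.0e-05), although 1853 of its 5186 exon bases are shared with other genes. Of its 2 distinct 3' ends, 0 lie in an exon of another gene. Itga11, the fibroblast chain of the same integrin group, was lower at -1.19 (DESeq2 adjusted p = 1.1e-06), as were Antxr2 (-1.15) and Antxr1 (-0.55), which bind and clear type VI and type I collagen. For degradation, 4 of 16 genes were called lower and none higher. Ctsl (-1.27) and Ctsk (-0.75) are cathepsins and Mmp3 (-1.18) is stromelysin. Of 14 further basement membrane genes tested, 4 were called lower and 1 higher. The laminin chain Lama5, typical of epithelial and vascular membranes, rose by 2.11 on the log2 scale (DESeq2 adjusted p = 9.3e-07), while Lama2 (-1.57), typical of muscle and nerve, Nid1 (-0.71) and Lamb1 (-0.64) were lower. Of the distinct 3' ends, 2 of 3 of Lama5, 5 of 12 of Lamb1 and 1 of 11 of Lama2 lie in an exon of another gene. The same holds for 2 of 2 of Tnxb and 1 of 4 each of Loxl4 and Ogn. The counts of these genes are uncertain if strand was not used. Some calls in these lists were lost when 1 library was left out, where 615 to 1305 of all genes were called, against 1154 with every library. Over the 13 alternative fits the log2 fold change was -0.65 to -0.50 for P3h3 and -0.61 to -0.49 for Antxr1. It was -0.78 to -0.53 for Lamb1 and -0.91 to -0.41 for Nid1. P3h3, Ogn, Antxr1, Ctsl, Nid1 and Lamb1 each lost theirs in 2 or more fits that left out a library, and Ogn was -1.17 without shControl replicate 1.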

How the data were processed

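CAFs were sorted from 3 shControl and 4 shBrca2 tumors, 1 library per mouse, so p-values measure the spread between these mice. The authors deposited raw counts of 3' reads per gene, not divided by length. The submitters' processing notes name bcl2fastq, cutadapt, STAR 2.4.2a, HTSeq, DESeq2 and the mm10 build. Whether strand was used in counting is not given in the sources used here. No 2 libraries agreed within sampling noise.

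From these counts, DESeq2 1.42.0 (R 4.3.3) was fitted on all 12771 genes and 7 libraries with group as the only term, by the likelihood ratio test against an intercept, with Benjamini-Hochberg adjustment over all genes and the thresholds given in the report. Log2 ratios of partner chains (pseudocount 1) were compared by two-sided exact permutation tests (scipy 1.17.1). The DESeq2 likelihood ratio fit was also run on simulated counts with known changes. Alternatives were edgeR 4.0.16 with TMM, DESeq2 with TMM size factors, the Wald test, only genes with 10 or more counts in at least 3 libraries, no independent filtering, a replicate block, other pseudocounts and leaving out each library.

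Values per library are given for every called chain, for the 2 chains with the highest mean in each class and for the chains in the ratios. Of each pathway list, up to 3 called genes per direction with the largest log2 fold changes are named. Gene positions and promoter windows are from RefSeq (GRCm38.p6), in which all 33 chains matched by symbol, and exon overlaps are from GENCODE. The members and lists were chosen with earlier results of these data known.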

Additional observations from a re-analysis of the deposited data

Results flagged for a closer look

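In the 4 shBrca2 libraries, 64 quantities were examined for a library far from the other 3 (Dixon's test), and 4 were found. Chance alone gives about 5% of such groups. Col26a1 had 10.2 normalized counts in shBrca2 replicate 4, where the others had 0, 0.861 and 1.17. Antxr2 had 194 in shBrca2 replicate 2, against 130, 131 and 138 in the others. Lamb1 had 1164 in shBrca2 replicate 3, against 794, 815 and 839. The log2 ratio of Col5a1 to Col5a2 was 5.66 in shBrca2 replicate 3, against 4.54, 4.61 and 4.71. The cause was not tested.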

How the results depend on the processing

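Changing the tool, test, size factors, filter or pseudocount reversed no direction and kept the counts of called collagen chains within 1.5 times. Leaving out 1 library gave 2 to 4 chains called higher and 4 to 8 lower (8 without shBrca2 replicate 3), and 2 to 6 pathway genes higher (6 without shControl replicate 2) and 15 to 26 lower (15 without shBrca2 replicate 1 or replicate 4). Over all genes these fits called 615 to 1305. The sign turned in some of these fits for 12 uncalled chains, whose log2 fold changes ranged from -0.24 to 0.26 (Col1a1), -0.16 to 0.057 (Col1a2), -0.22 to 0.47 (Col20a1), -0.18 to 0.28 (Col27a1), -0.31 to 0.066 (Col5a1), -0.029 to 0.94 (Col5a2), -0.25 to 0.50 (Col5a3), -0.0089 to 0.11 (Col6a1), -0.088 to 0.17 (Col6a2), -0.24 to 0.092 (Col6a3), -0.083 to 0.39 (Col8a1) and -0.29 to 0.069 (Col9a3). The difference in log2 ratio ranged from -0.084 to 0.21 for Col1a1 to Col1a2, -0.054 to 0.079 for Col6a1 to Col6a2 and -0.23 to 0.043 for Col6a3 to Col6a1.

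Deviations of same-numbered libraries from their group means correlated at -0.07, -0.10 and -0.09, and those of other-numbered libraries at -0.10 to 0.19. None correlated best with its own number. Pairing by number was thus not seen, but so few libraries, whose deviations sum to 0 within a group, cannot settle it. With the replicate block, 2 chains were called higher (Col24a1 and Col4a6) and 2 lower (Col14a1 and Col6a5, the latter not called in the main fit). Col4a2 (DESeq2 adjusted p = 0.19), Col4a5 (0.11), Col8a2 and Col28a1 were not called with the block. Col6a6 received no adjusted p in that fit and so could not be called. In that fit 2 pathway genes were called higher and 14 lower, and 491 of all genes were called, against 1154 without the block. Under the block Col1a1 turned to 0.12, Col27a1 to -0.10, Col6a3 to 0.00086 and the Col6a1 to Col6a2 difference to -0.0061. The cause was not tested. Chains with few counts, such as Col6a4, Col9a3 and Col26a1, are limited by depth.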

Other observations

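Marker lists of further cell types not described above also had values in these libraries. Their calls stand beside 3.77% of all genes tested called higher and 5.27% called lower. Over 6 of 11 immune markers the summed normalized counts were 305 to 319 in the controls and 399 to 425 in the shBrca2 libraries, with 2 genes called higher, 1 called lower and Jchain at 0 in some library. Most of the shBrca2 sum was Csf1r, called higher (mean 113 against 248), as was C1qa (6.18 against 18.7). C1qb (11.1 against 17.0) was not called. Jchain was called lower (33.2 against 2.78), and Cd68 (98.6 against 79.8) and Lyz2 (51.4 against 41.9) had lower means without a call. The 4 chondrocyte markers in the table (of 8) summed to 87.6 to 122 and 102 to 160, with 1 called higher and 1 lower and Cnmd at 0 in some library. The 8 acinar markers (of 10) summed to 160 to 263 and 103 to 166, with 1 called higher and 3 lower, and Cela2a, Cpb1 and Pnlip were at 0 in some library. Most of the shBrca2 acinar sum was Cela1, the one called higher (mean 56.9 against 111). The other 7 acinar markers lay below every control in all shBrca2 libraries, where 17.1% of all genes tested did not overlap. Ctrb1 (72.7 against 17.7) had the highest control mean of these 7. The part of these cell types in the collagen results was not tested.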
